A study of Homo sapiens with 4 samples.

Results

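The genes described here are LRP2, CUBN, AMN, DAB2 and FOLR1, the endocytic receptors megalin and cubilin with their membrane partner, their cargo adaptor and a folate receptor that is carried by the same route. They were chosen by symbol, and all 5 were found among the 36601 genes counted in both capture runs. The cells came from H9, an established human embryonic stem cell line, kept in the naive state. They were aggregated in microwells and led towards blastoids, stem cell structures that resemble the blastocyst, and the medium of the initial 40 h held either no added metabolite (0 mM) or 4 mM of dimethyl α-ketoglutarate (dm-αKG), a form of α-ketoglutarate that enters cells. Cells were collected from 40 h aggregates or from 120 h blastoids, and for the latter only structures with a single cavity were picked by hand, so structures without a cavity are not represented. Run 1 pooled 4 hashtagged cultures, aggregates and blastoids at each dose, and run 2 pooled blastoids at each dose. An arm is 1 hashtagged culture in 1 run, which gave 2 blastoid arms and 1 aggregate arm per dose. All groups share 1 cell line, the naive culture and, apart from dm-αKG, the induction media of the initial 40 h. The blastoids then went on through later induction media that the aggregates did not receive.

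Megalin is a very large endocytic receptor that sits on the apical surface of absorptive epithelia and takes up lipoproteins, vitamin carriers and many other proteins. Cubilin has no membrane span of its own, binds the complex of intrinsic factor and vitamin B12, and needs amnionless, the product of AMN, to reach the cell surface. DAB2 links the tail of megalin to clathrin, and FOLR1 binds folate at the cell surface through a lipid anchor. The set is known best from the proximal tubule of the kidney and from the extraembryonic epithelia that feed the early mammalian embryo, visceral endoderm and trophectoderm among them.

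Blastoid cells were split by 9 genes that are not among the 5: a cell was called TE-like (trophectoderm-like) if its UMIs, the counted unique molecules, of KRT8, KRT18, GATA3 and CLDN4 outnumbered those of POU5F1, DPPA5, DPPA4, L1TD1 and TDGF1, and Epi-like (epiblast-like) if not. Of 12647 cells kept, 418 were TE-like, 9974 Epi-like and 2255 from aggregates. The TE-like cells numbered 18 and 49 in run 1 and 181 and 170 in run 2, at 0 and 4 mM in that order. Of these TE-like cells, 32 lay within a factor of 2 of the dividing line. The class names fitted the sums of their marker lists: a list of 14 trophectoderm genes outside the rule summed to between 2116 and 4465 CPM (counts per 1000000 UMIs of a sum) in the TE-like arms and between 63.9 and 74.3 CPM in the Epi-like arms, and a list of 11 epiblast genes summed to between 102.8 and 274.3 CPM against 922 to 1213 CPM. Not every gene followed its list. DNMT3L, of the epiblast list, stood at 135.8 and 66.9 CPM in the TE-like arms of run 1 and at 142.9 and 102.0 CPM in those of run 2. In the Epi-like arms it stood at 90.1, 81.9, 101.6 and 90.0 CPM in the same order. CGA, of the trophectoderm list, was at or below 1.24 CPM in every TE-like arm. Summed TE-like counts held between 456611 UMIs (0 mM, run 1) and 2981693 UMIs (0 mM, run 2), so the control arm of run 1, with 18 cells, was the least precise. The median UMI count per TE-like cell was 25490.5 and 31693 in run 1 and 15841 and 16472 in run 2. Hypoblast markers were also summed, since GATA6 and some others moved with the TE-like class. The list of 15 summed to 232, 115, 81.2 and 90.1 CPM in the TE-like arms, in the order run 1 at 0 and 4 mM and then run 2 at 0 and 4 mM, against 31.6 to 35.8 CPM in the Epi-like arms. GATA6, which trophectoderm also uses, made up much of this, at 102.9, 73.1, 66.7 and 49.8 CPM; the other 14 summed to 129.2, 42.1, 14.4 and 40.3 CPM against 30.4 to 34.7 CPM in Epi-like arms. In the 0 mM arm of run 1, FOXA2 stood at 10.9 CPM, RSPO3 at 17.5, LINC00261 at 30.7 and APOA1 at 6.57 CPM, on 3 to 14 UMIs each. These genes were at 0 in the 0 mM arm of run 2, where GATA4 and SOX17 held 2 UMIs each and PDGFRA 1. In the 4 mM arm of run 2, PDGFRA stood at 8.13 CPM, RSPO3 at 4.07 and SOX17 at 3.73 CPM, above every Epi-like arm. GATA4, at 1.36 CPM, and FOXA2, at 0, were not above them. OTX2 was lower in every TE-like arm than in any Epi-like arm. Visceral endoderm, which the hypoblast forms, also uses megalin and cubilin, so the 5 TE-like cells with UMIs of at least 3 of 7 hypoblast genes were examined on their own. They held 0 UMIs of LRP2, 0 of CUBN, 0 of FOLR1 and 2 of DAB2. Amnion markers, a list of 8, summed to between 13.1 and 24.1 CPM in TE-like and between 27.6 and 30.0 CPM in Epi-like arms. BAMBI made up most of the Epi-like sums, at 23.5 to 25.8 CPM. VTCN1 went the other way, at 0 and 5.57 CPM in the TE-like arms of run 1 and 2.35 and 1.69 CPM in those of run 2. It was at most 0.0650 CPM in Epi-like arms.

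The genes lie on 5 chromosomes (GRCh38, GENCODE 44). LRP2 spans chromosome 2, 169127109 to 169362534, on the minus strand. CUBN spans chromosome 10, 16823966 to 17129811, and DAB2 chromosome 5, 39371675 to 39462300, both also on the minus strand. AMN lies on the plus strand of chromosome 14, 102922663 to 102933596, and its 3′ end overlaps CDC42BPB on the opposite strand. FOLR1 lies on the plus strand of chromosome 11, 72189558 to 72196323, within a long non-coding RNA gene of the opposite strand. The 250 bases before the transcription start are shown for LRP2 and DAB2, which were high together in TE-like cells, and for CUBN, which was not detected there. They are RefSeq sequence (GRCh38.p14), 5′ to 3′ on the gene's strand, with CpG dinucleotides in capitals. They cover 169362535 to 169362784 (LRP2), 39424981 to 39425230 (DAB2) and 17129812 to 17130061 (CUBN); the RefSeq start of DAB2 lies inside the longer GENCODE gene.
LRP2: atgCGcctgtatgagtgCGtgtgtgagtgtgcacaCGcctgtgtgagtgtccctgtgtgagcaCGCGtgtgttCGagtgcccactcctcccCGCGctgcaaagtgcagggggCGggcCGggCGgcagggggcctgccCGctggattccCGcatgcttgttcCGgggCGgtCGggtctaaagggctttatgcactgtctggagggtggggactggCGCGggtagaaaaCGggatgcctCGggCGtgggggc
DAB2: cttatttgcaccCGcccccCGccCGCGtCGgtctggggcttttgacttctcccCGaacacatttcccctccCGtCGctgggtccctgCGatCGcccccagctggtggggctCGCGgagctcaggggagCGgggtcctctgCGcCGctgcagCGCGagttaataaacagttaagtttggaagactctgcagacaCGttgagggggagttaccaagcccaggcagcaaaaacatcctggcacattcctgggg
CUBN: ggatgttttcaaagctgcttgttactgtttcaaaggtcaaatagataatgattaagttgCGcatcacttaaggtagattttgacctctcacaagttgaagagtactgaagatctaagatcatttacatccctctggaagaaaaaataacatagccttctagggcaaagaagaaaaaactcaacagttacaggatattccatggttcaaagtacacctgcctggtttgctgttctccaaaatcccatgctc

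The LRP2 stretch held 21 CpGs and the DAB2 stretch 18, more than 69.8% and 63.2% of 35116 RefSeq promoter stretches of that length. The CUBN stretch held 1, more than 6.06% of them, and that of AMN 8. RefSeq entries were matched for 4 of the 5 genes, the exception being FOLR1. The letters GCCNNNGGC, searched on both strands as the core of AP-2 family sites, occurred once in LRP2, starting 17 bases before the start, once in AMN, 93 bases before it, and in 19.8% of all stretches. The GATA motif AGATAA or its reverse complement occurred once in CUBN, 208 bases before the start, and in 9.17% of all. Neither was found in the DAB2 stretch. GCCNNNGGC reads the same on both strands.

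LRP2, DAB2 and FOLR1 were among the strongly TE-like genes of the blastoid, CUBN was not detected in any TE-like cell, and AMN stood at low levels that overlapped between the classes. LRP2 held 951 UMIs in 294 of 418 TE-like cells and 100 UMIs in 85 of 9974 Epi-like cells. In TE-like cells it stood at 67.9 CPM (0 mM) and 169.7 CPM (4 mM) in run 1 and at 94.2 and 123.7 CPM in run 2. In Epi-like cells it stood at 0.0846, 0.216, 0.487 and 0.758 CPM in the same order. The classes did not overlap, and the lowest TE-like arm lay far above the highest Epi-like arm. The difference was 8.09 ± 0.213 (log2, SE; n = 4 arms) in edgeR's quasi-likelihood test with the arm as block (adjusted p = 9.7e-17), the rank 17 difference from the top among 13174 genes tested. That comparison called 48.1% of all genes, so a call by itself says little, and the size sets these genes apart.

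DAB2, the adaptor, was at 124.8 and 168.5 CPM in the TE-like arms of run 1 and at 129.5 and 142.6 CPM in those of run 2. It was not absent from Epi-like cells, which held 6.35, 9.89, 6.89 and 8.94 CPM, and 1327 of 9974 of them had a UMI. The difference was 4.34 ± 0.106 on the log2 scale (edgeR adjusted p = 3.4e-17), about 20.3-fold. FOLR1, the folate receptor, was at 138.0 and 180.8 CPM in the TE-like arms of run 1 and at 99.9 and 126.4 CPM in those of run 2. Its Epi-like levels were 2.88, 0.711, 2.68 and 1.41 CPM. The difference was 6.41 ± 0.256 on the log2 scale (edgeR adjusted p = 6.3e-14), about 85.1-fold. In both genes every TE-like arm lay above every Epi-like arm. The 2 paralogs of FOLR1 were not part of this pattern: FOLR2 had 0 UMIs and FOLR3 1 UMI over the 4 TE-like arms.

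**Figure D1:**
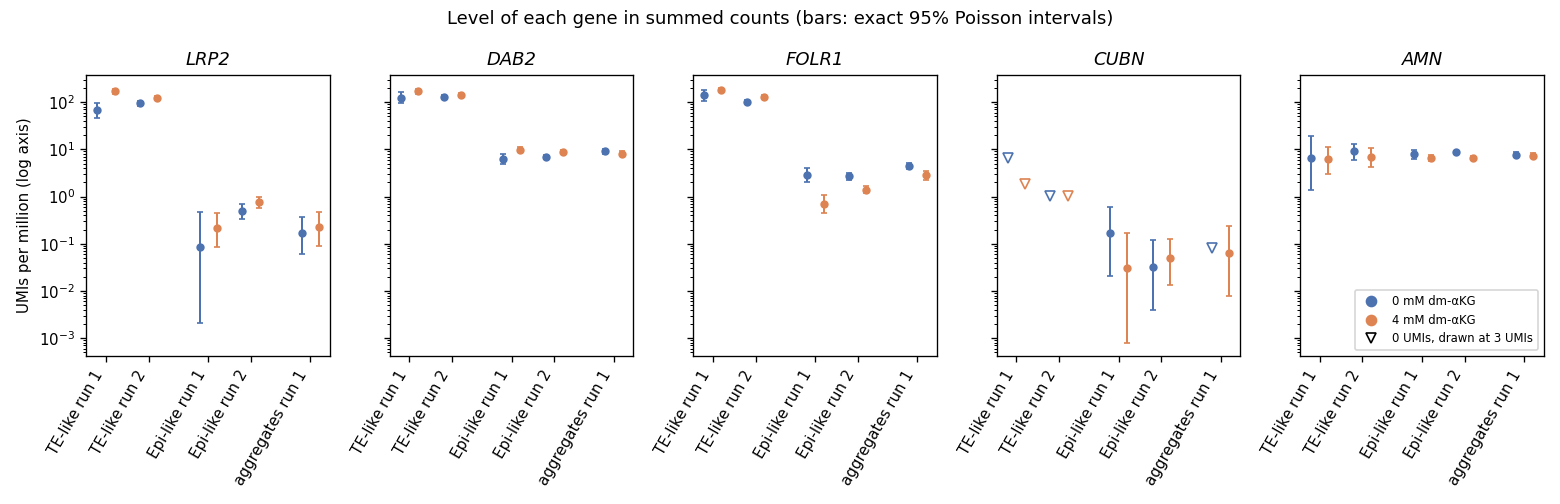
Level of the 5 genes in each summed arm in CPM on a log axis, by class and run; blue is 0 mM and orange 4 mM dm-αKG, bars are exact 95% Poisson intervals, and open triangles mark 0 UMIs, drawn at the level of 3 UMIs. LRP2, DAB2 and FOLR1 stand between 67.9 and 180.8 CPM in TE-like arms and below 10 CPM elsewhere, AMN between 6.19 and 9.06 CPM throughout, and CUBN at 0 in every TE-like arm.

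CUBN, the B12 receptor, gave 11 UMIs in 12647 cells, each in a different cell. None fell in the 418 TE-like cells, where 3 cells would be a share of 0.718% and the exact 95% interval reaches 0.879%. In CPM, 3 UMIs correspond to 6.57 and 1.86 CPM in the TE-like arms of run 1 and to 1.01 and 1.02 CPM in those of run 2, so at run 2 depth the absence of counts puts CUBN below LRP2. The other UMIs were 9 in Epi-like cells and 2 in aggregates. CUBN did not pass the filter on low counts and was tested in no comparison. AMN, which brings cubilin to the surface, was present throughout at a level close to the limit for single cells. It was at 6.57 and 6.19 CPM in TE-like arms of run 1, 9.06 and 6.78 CPM in those of run 2, and at 7.87, 6.52, 8.58 and 6.47 CPM in the Epi-like arms. The ranges overlapped, and the difference was 0.24 ± 0.224 (log2; edgeR adjusted p = 0.396), with an approximate 95% interval from -0.20 to 0.68. Of the other parts of the B12 route, CBLIF, intrinsic factor, was at or below 0.339 CPM in all 10 sums, while CD320, the receptor for the transcobalamin complex in most cells, stood at 83.2 to 124.8 CPM in TE-like and 202.3 to 229.0 CPM in Epi-like arms.

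Counted per cell, the 3 abundant genes were spread over most TE-like cells. Without thinning, LRP2 had a UMI in 12 of 18, 44 of 49, 111 of 181 and 127 of 170 TE-like cells, DAB2 in 17, 42, 120 and 140, and FOLR1 in 13, 46, 112 and 127. Because run 1 was deeper, each cell was also thinned to 5000 UMIs. LRP2 was then seen in 27.8%, 40.8%, 37.0% and 41.8% of TE-like cells, DAB2 in 55.6%, 53.1%, 43.1% and 45.9%, and FOLR1 in 33.3%, 57.1%, 39.2% and 40.0%. The 95% intervals of the 2 doses overlapped in each run for each gene. In Epi-like cells the thinned shares were at most 0.376% for LRP2, 5.56% for DAB2 and 1.47% for FOLR1. AMN was seen in 0 to 5.56% of thinned TE-like and 3.60 to 3.92% of thinned Epi-like cells. Single cells reached 30 UMIs of LRP2, 16 of DAB2 and 33 of FOLR1, all in the 4 mM arm of run 1, and the tenth of TE-like cells with the most LRP2 held between 32.1% and 45.2% of its UMIs.

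**Figure D2:**
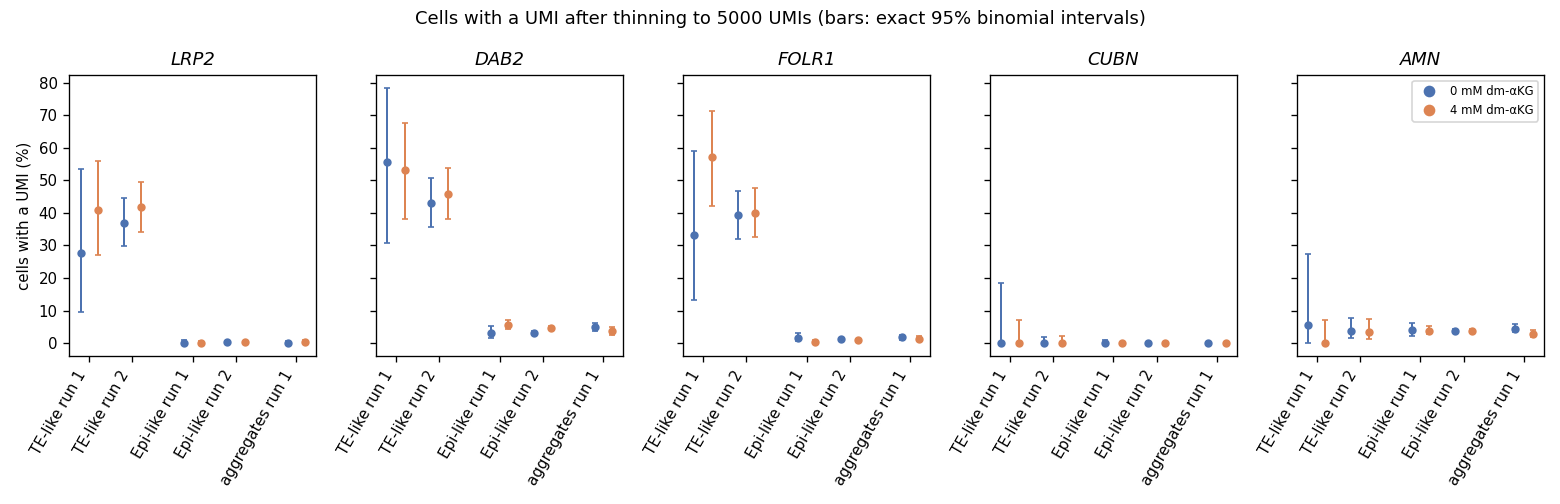
Share of cells with at least 1 UMI of each gene, in percent, after each cell was thinned to 5000 UMIs; blue is 0 mM, orange 4 mM dm-αKG, and bars are exact 95% binomial intervals that cover counting error only. LRP2, DAB2 and FOLR1 were seen in 27.8 to 57.1% of TE-like cells, and the intervals of the 2 doses overlap in both runs.

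The same TE-like cells often held more than 1 of the genes. At least 3 of the 5 had a UMI in 11 of 18 and 41 of 49 TE-like cells of run 1 and in 70 of 181 and 90 of 170 cells of run 2, at 0 and 4 mM; no cell had all 5. In run 2 at 0 mM, LRP2 was seen in 75.0% of the cells with DAB2 and 34.4% of those without, at median depths of 17105 and 13833 UMIs. At 4 mM the shares were 77.9% and 60.0%, at 16492 and 15430 UMIs. LRP2 was likewise seen in 70.5% of the cells with FOLR1 and 46.4% of those without at 0 mM, and in 78.0% and 65.1% at 4 mM. Cells with a UMI were deeper in each of these pairs, and the part of depth in the difference was not tested. The cells with a UMI of NR2F2, a transcription factor of mature trophectoderm, had more LRP2 than those without in 3 of the 4 arms. The paper lists NR2F2 with its polar trophectoderm markers but LRP2 with its mural ones. In run 2 it stood at 120.1 against 76.0 CPM at 0 mM and 131.3 against 95.02 CPM at 4 mM. DAB2 was at 151.7 against 113.8 CPM and at 147.6 against 124.0 CPM, and FOLR1 at 94.9 against 103.5 CPM and at 132.6 against 103.1 CPM. Cells with NR2F2 made up 67 of 181 and 128 of 170. They were also deeper, at median depths of 17974 against 15102.5 UMIs at 0 mM and 16961 against 13708.5 UMIs at 4 mM. In run 1 at 0 mM the order was the reverse for LRP2, with 48.6 against 95.2 CPM, and for FOLR1, with 56.1 against 253.8 CPM, in 11 and 7 cells. At 4 mM in run 1, LRP2 was at 177.8 against 88.3 CPM and FOLR1 at 188.8 against 101.9 CPM, in 45 and 4 cells. These are descriptions of cells within an arm, so no test was run.

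The TE-like level of these genes was compared with the little seen in Epi-like cells, since free RNA in a droplet run carries transcripts of one cell type into another. PTN, a trophectoderm gene at 256 to 994.6 CPM in TE-like cells, stood in Epi-like cells at 0.137% and 0.0590% of its TE-like level in run 1 and at 0.577% and 0.255% in run 2. LRP2 stood at 0.125%, 0.127%, 0.517% and 0.613%. At 0 mM these were below the PTN ratio and at 4 mM above it. PTN had the lowest ratio of the trophectoderm genes compared, and its TE-like level was itself higher at 4 mM. GATA2 stood at 0.750% and 0.507% in run 1 and 1.40% and 1.26% in run 2, and LRP2 lay below it at both doses, so whether LRP2 is above free RNA at 4 mM turns on the reference gene. HSD17B1, at 0.327% and 0.614% at 4 mM, was above LRP2 in run 1 and level with it in run 2. In run 2 at 4 mM, 20 of the 62 Epi-like UMIs of LRP2 lay in 7 cells close to the dividing line, and 1 cell held 8 UMIs. DAB2 stood at 5.08 to 6.27% and FOLR1 at 0.393 to 2.68% of the TE-like level. A level set by the PTN ratio would be 1.01 to 10.8% of the DAB2 level and 6.57 to 22.9% of the FOLR1 level in Epi-like cells; at 4 mM, FOLR1 lay below the GATA2 ratio in both runs. Most Epi-like cells with FOLR1 held 1 UMI, 138 of 151 in run 2 at 0 mM, and their share of UMIs from the 4 trophectoderm genes of the rule, a median of 0.0153% of their UMIs, was close to that of cells without it, 0.0129%. Epi-like cells are low in those 4 genes by the rule itself, so this closeness cannot decide where the FOLR1 UMIs came from. Their source was not tested.

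**Figure D3:**
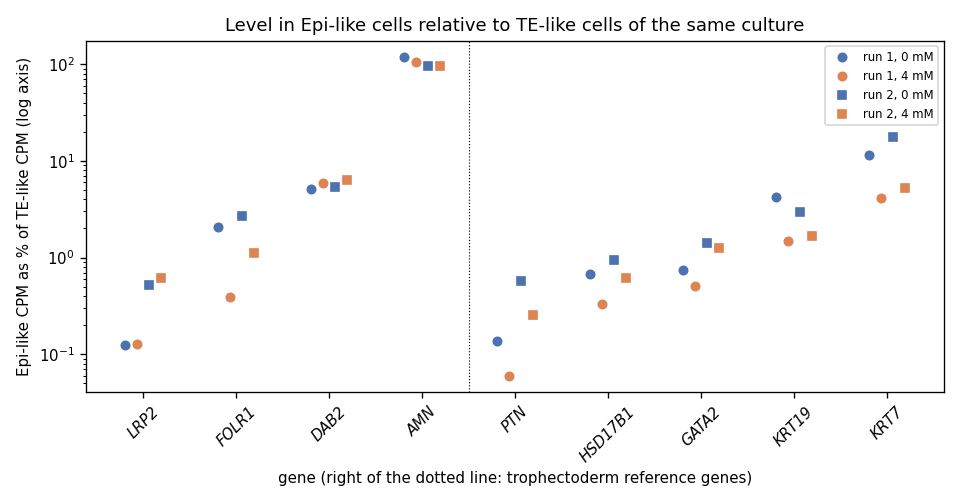
Epi-like level as a percentage of the TE-like level of the same blastoid arm, on a log axis, for the detected members (left of the dotted line) and 5 trophectoderm genes (right); circles are run 1, squares run 2, blue 0 mM and orange 4 mM. LRP2 lies at 0.125 to 0.613%, beside PTN, DAB2 at 5.08 to 6.27%, and AMN near 100%.

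The question of the treatment is whether dm-αKG in the initial 40 h left a mark on these genes in TE-like cells at 120 h. In the TE-like comparison of 4 with 0 mM, which called 1.44% of 9104 genes, 0.648% higher and 0.791% lower, none of the 4 genes tested passed. LRP2 came nearest. It was 2.50-fold higher at 4 mM in run 1 (counting interval 1.72 to 3.75), where the control rests on 31 UMIs, and 1.31-fold higher in run 2 (1.12 to 1.54), from 281 and 365 UMIs. The fitted difference was 0.68 ± 0.188 (log2; edgeR adjusted p = 0.0701), with both runs in that direction. Its call turned on the settings: it passed in 6 of 8 alternatives, with adjusted p from 0.0146, and failed with DESeq2 (adjusted p = 0.99996) and without the run as block (adjusted p = 0.193). The 14 trophectoderm markers outside the rule summed to 2116 and 4465 CPM in run 1 and to 2128 and 3594 CPM in run 2, so they too were higher at 4 mM in both runs, and their part in the LRP2 difference was not tested.

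DAB2 and FOLR1 had ratios above 1 in TE-like cells at 4 mM in both runs, but neither passed after adjustment over all genes. The DAB2 ratio was 1.35 in run 1 and 1.10 in run 2 (0.23 ± 0.162; edgeR adjusted p = 0.770). That of FOLR1 was 1.31 and 1.26 (0.34 ± 0.162; edgeR adjusted p = 0.533), with an approximate 95% interval from 0.018 to 0.65 before any adjustment. AMN, with 3 to 27 UMIs an arm, differed by -0.36 ± 0.442 (edgeR adjusted p = 0.895), an approximate 95% interval from -1.23 to 0.50 that holds changes in either direction.

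In Epi-like cells FOLR1 moved the other way. In run 1 it went down from 2.88 CPM (34 UMIs in 408 cells) to 0.711 CPM (23 UMIs in 1043 cells). In run 2 the control arm held 2.68 CPM (165 UMIs in 3719 cells) and the 4 mM arm 1.41 CPM (115 UMIs in 4804 cells). The 4 mM arms were both below the control arms. The fitted difference was -1.16 ± 0.204 (log2; edgeR adjusted p = 0.000183), 2.24-fold, in a comparison that called 5.2% of 17014 genes higher and 3.49% lower. Without the run as block the adjusted p was 0.166, and DESeq2 gave no adjusted p at this low count. Among Epi-like cells thinned to 5000 UMIs, the share with FOLR1 was 1.47% and 0.384% in run 1 and 1.26% and 0.895% in run 2. The summed level of the 4 trophectoderm genes of the rule went in the opposite direction in these cells, from 231.7 to 328.1 CPM and from 228.0 to 294.5 CPM. Those 4 genes help define the class. The 14 trophectoderm genes outside the rule did not rise, at 64.2 and 63.9 CPM in run 1 and 74.3 and 70.4 CPM in run 2. The part of trophectoderm RNA in the FOLR1 difference was not tested.

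The difference between the dose effects in the 2 classes was tested as a term of its own. For FOLR1 it was 1.67 ± 0.260 on the log2 scale (TE-like minus Epi-like; edgeR adjusted p = 2e-07; DESeq2 adjusted p = 0.0207), 1.87 in run 1 and 1.08 in run 2, and it passed in all 7 alternatives with a test. That comparison called 0.774% of 13174 genes, 0.38% in this direction and 0.395% in the other. Its edgeR fit took the spread from all genes, not from the arms of FOLR1 alone. The term was 0.15 ± 0.406 for LRP2, -0.20 ± 0.212 for DAB2 and -0.01 ± 0.494 for AMN, none of which passed (edgeR adjusted p from 0.995 to 1). For LRP2 the Epi-like part of this term rests on 1 to 62 UMIs an arm, and the dose difference there was 0.70 ± 0.344 (edgeR adjusted p = 0.226).

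**Figure D4:**
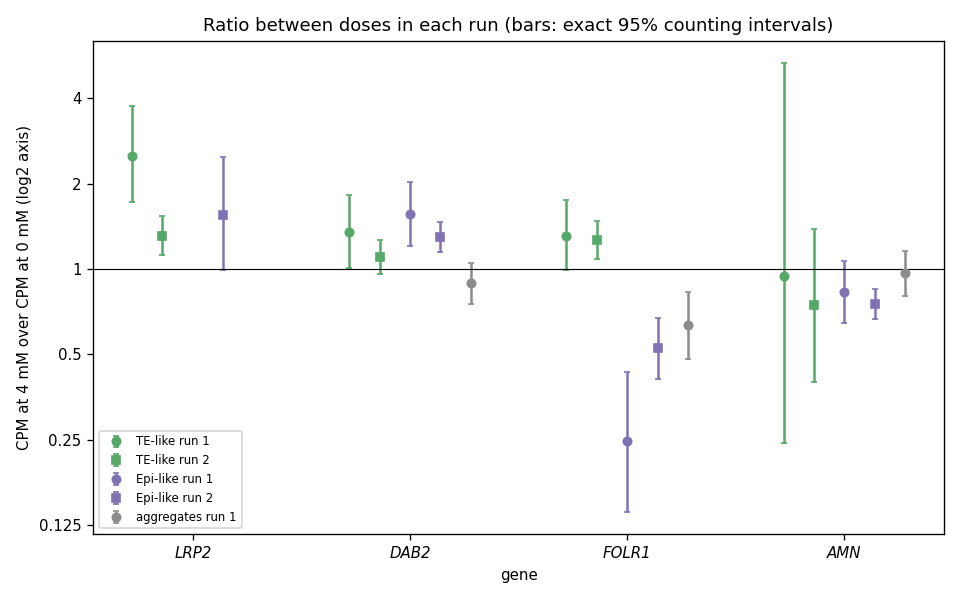
Ratio of the level at 4 mM to that at 0 mM dm-αKG in each run, on a log2 axis with 1 as no difference; green is TE-like, purple Epi-like, grey aggregates, circles are run 1, squares run 2, and bars are exact 95% counting intervals. FOLR1 lies above 1 in both TE-like arms (1.31 and 1.26) and below 1 in both Epi-like arms (0.247 and 0.524) and in aggregates (0.635); LRP2 is left out where an arm held under 10 UMIs.

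DAB2 rose with dm-αKG in Epi-like cells, with 6.35 against 9.89 CPM in run 1 and 6.89 against 8.94 CPM in run 2. The fitted difference was 0.46 ± 0.108 (log2; edgeR adjusted p = 0.00461), 1.37-fold; without the run as block the adjusted p was 0.186 and in DESeq2 0.290. AMN, at 7.87 against 6.52 CPM and 8.58 against 6.47 CPM, fell by 0.36 ± 0.109 on the log2 scale (edgeR adjusted p = 0.0316), 1.28-fold; without the block the adjusted p was 0.301 and in DESeq2 0.573. In both genes the 2 arms of each dose lay on one side of the arms of the other.

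Aggregates at 40 h held LRP2, DAB2 and AMN at levels near those of Epi-like cells and FOLR1 above them in the same run, and with 1 arm per dose there is no test. LRP2 gave 6 UMIs in 1201 cells at 0 mM and 7 UMIs in 1054 cells at 4 mM, 0.166 and 0.227 CPM. DAB2 was at 9.03 CPM (95% Poisson interval 8.07 to 10.1) and 8.03 CPM (7.06 to 9.09), and AMN at 7.61 and 7.34 CPM. FOLR1 was at 4.40 CPM (3.75 to 5.14) at 0 mM and 2.79 CPM (2.24 to 3.45) at 4 mM, a ratio of 0.635 with a counting interval from 0.483 to 0.830 and in the direction seen in Epi-like cells at 120 h. In run 1, Epi-like FOLR1 was 0.653 of the aggregate level at 0 mM (0.437 to 0.951) and 0.254 at 4 mM (0.153 to 0.407). DAB2 was 0.703 of the aggregate level at 0 mM (0.539 to 0.906) and 1.23 at 4 mM (1.04 to 1.46). These intervals cover counting error only. Epi-like cells and aggregates differ in both time and later media, which cannot be told apart here.

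Around the 5 genes, the lists of endocytic machinery were counted in the TE-like against Epi-like comparison, where the median of all genes was -0.05 on the log2 scale, 22.5% of genes were higher and 25.6% lower. Lysosomal hydrolases and membrane proteins stood out by count, with 16 of 22 tested genes higher and 1 lower (median 0.55), led by the protease CTSL (2.17 ± 0.106), the membrane protein LAMP2 (1.95 ± 0.119) and CTSB (0.77 ± 0.0993). The list of clathrin, AP2 and scission genes had 12 of 26 higher and 5 lower, with BIN1 at 2.56 ± 0.146, the kinase AAK1 at 1.69 ± 0.136 and clathrin light chain CLTA at 1.06 ± 0.0750. Early and recycling endosome genes had 10 of 24 higher and 4 lower; the recycling gene EHD4 was higher by 1.56 ± 0.109 and RAB25 by 0.92 ± 0.109, while RAB5A fell by 0.94 ± 0.120. Among apical surface genes 8 of 15 were higher and 4 lower, with the scaffold SLC9A3R1 at 2.15 ± 0.115 and the polarity gene PARD6B at 1.64 ± 0.123. Without TMM factors, which moves the median of all genes to -0.27, the lysosomal list had 13 higher and 2 lower, the clathrin list 9 and 5, the endosome list 7 and 7 and the apical list 8 and 6. Each named gene passed the edgeR test and kept its direction and its call under that scaling and in DESeq2.

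The relatives of megalin went the other way. Of 11 other genes of its receptor family tested, 1 was higher in TE-like cells, LRP1 (0.82 ± 0.148), and 8 were lower (median -0.83), among them the Wnt co-receptor LRP6 (-0.33 ± 0.119). Of 14 chaperones and adaptors 6 were higher, led by the folding chaperone MESD (0.83 ± 0.0910), TOLLIP (0.74 ± 0.147) and the motor MYO6 (0.57 ± 0.111), and 4 lower; without TMM factors 4 were higher and 5 lower. Other endocytic receptors split into 3 higher and 5 lower of 13, with the transferrin receptor TFRC at 1.34 ± 0.125, TNFRSF21 at -1.30 ± 0.157 and INSR at -1.08 ± 0.164. Vitamin B12 and folate genes split evenly, 4 higher and 4 lower of 20, but 2 higher and 10 lower without TMM factors; CD320 (-0.83 ± 0.113), MTHFD1 (-0.53 ± 0.115) and MTHFD2 (-0.45 ± 0.0843) were lower. Of 8 tested ligands and lipoproteins 1 was higher and 4 lower, APOE by -0.71 ± 0.0863 and APOC1 by -0.62 ± 0.0863. Genes of each list that are not named lay on either side or did not pass.

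With dose in TE-like cells, 3 of the 126 genes of the 9 lists that were tested were called, 2.38% against 1.44% of all genes. The gene that was higher was the uncoating chaperone HSPA8 (0.57 ± 0.131; edgeR adjusted p = 0.0174), and 2 were lower, TFRC by -0.66 ± 0.147 (edgeR adjusted p = 0.0128) and the membrane linker EZR by -0.65 ± 0.118 (edgeR adjusted p = 0.00184). TFRC and EZR also differed from their Epi-like dose effect, by -0.77 ± 0.179 and -0.64 ± 0.156 (edgeR adjusted p = 0.00435 and 0.00731). In Epi-like cells, where 8.69% of all genes were called, 11 of 163 list genes were higher and 10 lower, 12.9% together. They included HSPA8 (0.34 ± 0.0659), ITSN1, PICALM, VPS35 and the folate enzyme SHMT2 (0.26 ± 0.0630) on the higher side, and APOE (-0.35 ± 0.0700), RAB25 (-0.33 ± 0.0742), CTSL (-0.29 ± 0.0650), TNFRSF21 and NPC2 on the lower.

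Over the 10 sums of arm and class, the genes whose log2 level followed LRP2 most closely among 7167 genes of at least 10 CPM were GATA2, PTN, ARHGAP29, LRRFIP1 and SNX2 (Pearson r from 0.996 to 0.998), and DAB2 was the ninth. For DAB2 they were ARHGAP29, SLC7A8, STS, LAMB1 and CD99, with LRP2 the tenth. For FOLR1 they were TEAD1, STARD10, S100A14, CEBPA and GATA3, a gene of the class rule, with LRP2 at rank 68. These correlations run over sums that share runs and arms and are carried by the gap between TE-like and other sums, so they describe likeness only.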

How the data were processed

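Both capture runs were 10x Genomics 3′ libraries (v3.1 chemistry) of pooled, hashtagged H9 cultures. The deposited values are UMI counts, and per the submitters' processing notes Cell Ranger 6.1.2, GRCh38 and bcl2fastq 2.20.0.422 were used by the authors; hashtag counts stand in the same matrices. They held 9431 and 15133 barcodes with 144122560 and 200278140 UMIs, and 28 barcodes occurred in both runs. Hashtags were assigned here with Seurat 5.3.0 (CLR, HTODemux, quantile 0.99), which left 6012 and 10400 singlets; 512 and 1142 hashtag doublets and 2907 and 3591 negative barcodes were removed, and doublets within a culture cannot be seen this way. The authors' limits were then applied: at most 15% mitochondrial UMIs and at least 7000 (run 1) or 5000 (run 2) UMIs, leaving 12647 cells. The share of singlets kept differed between 0 and 4 mM. It was 44.8% and 73.1% for blastoids of run 1, 71.7% and 55.7% for aggregates, and 81.0% and 89.0% for blastoids of run 2. Among kept TE-like cells of run 1, the median mitochondrial share was 6.10% and 3.72%. The part of cell quality in the dose differences was not tested.

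Counts were added up over the cells of a class in an arm, and CPM is counts per 1000000 UMIs of such a sum. Tests were edgeR 4.0.16 quasi-likelihood F tests (R 4.3.3; TMM factors, filterByExpr, the arm or run in the model), with Benjamini-Hochberg adjustment over all genes tested and a threshold of 0.05; SE is the log2 difference over the root of F, and the approximate interval is 1.96 SE. The arms are paired by run, which the labels give: run 1 minus run 2 differences at 0 and at 4 mM correlated at 0.102 over 6661 genes in TE-like and 0.518 over 7283 genes in Epi-like cells. Arms are the replicates, 2 per dose. Residual degrees of freedom were 3 for the class test, 1 for each dose test and 2 for the class by dose term. The spread behind each p-value was therefore largely shared across genes. Prior degrees of freedom were 16.5 (class), 26.3 (dose, TE-like), 35.8 (dose, Epi-like) and infinite (class by dose). For the class by dose term, an edgeR p-value thus does not measure the spread of that gene's own arms. CPM and ratios have exact Poisson or binomial intervals, shares have exact Clopper-Pearson intervals, and per-run log2 ratios use a pseudocount of 0.5 CPM. A floor is 3 counts. Intervals and floors cover counting error only.

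The members, gene lists and tests were chosen with earlier results of these data known. List genes were named if past the threshold, at a mean of at least 20 CPM and in the same direction in every run or arm, at most 3 per list and comparison by size; some that met this rule are not reported here. Alternatives were DESeq2 1.42.0, no TMM factors, no filter, a class rule needing 2 times the other side, all singlets, no cells above 2 times their arm's median UMIs, no block, each run left out and, chosen after seeing the data, TE-like cells with hypoblast genes left out. The fitting script was tested on simulated data. Coordinates are from GENCODE 44 and promoter sequence from RefSeq (GRCh38.p14). No protein table was used here, and protein motifs were not analysed here.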

Additional observations from a re-analysis of the deposited data

Results flagged for a closer look

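FOLR1 was drawn out because its dose effect differed between the classes by a test of the difference: 1.67 on the log2 scale, TE-like minus Epi-like, with TE-like values higher at 4 mM in both runs and Epi-like values lower in both. In 3 further cases every arm of one kind went one way and the aggregate arm the other, and these differences were not tested: for FOLR1, TE-like minus aggregates was 0.936 (mean of the log2 ratios of the runs); for DAB2, TE-like minus aggregates was 0.445 and Epi-like minus aggregates 0.637. Each rests on 1 aggregate arm per dose, and the counting interval of the DAB2 ratio in aggregates, 0.751 to 1.05, includes 1. No group held the 4 arms that a check for outlying samples needs.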

How the results depend on the processing

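The class differences of LRP2, DAB2 and FOLR1 passed in all 9 alternatives, and that of AMN in none. Leaving out 1 run gave 2810 genes (without run 2) to 5545 called between the classes against 6338. Without TMM factors that comparison had 1907 higher and 4907 lower genes, against 2961 and 3377, and the median of all genes moved from -0.05 to -0.27.

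For dose in TE-like cells the genes called were 131 in all, but 20 with DESeq2, 37 with no replicate block, 245 with all singlets and 225 without high-UMI cells. LRP2 passed there without TMM factors (0.70), with no filter (0.72), with the stricter class rule (0.61), with all singlets (0.56), without high-UMI cells (0.67) and without cells with hypoblast genes (0.67). For dose in Epi-like cells the count of 1478 fell to 206 with DESeq2 and 16 with no replicate block. There FOLR1 (-1.29), DAB2 (0.48) and AMN (-0.36) were no longer called without the block, and DAB2 (0.49) and AMN (-0.35) with DESeq2. The class by dose term called 102 genes and 26 with DESeq2; for AMN it changed sign, to 0.0001975, without cells with hypoblast genes. The causes were not tested.

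A single run leaves no replicate, so these are per-run log2 ratios. In TE-like cells they ranged from 0.39 to 1.32 for LRP2, from -0.39 to -0.079 for AMN and from 0.34 to 0.39 for FOLR1. In Epi-like cells they ranged from 0.29 to 0.35 for LRP2 and from -0.38 to -0.25 for AMN. For the class by dose term they ranged from 0.041 to 1.02 for LRP2, -0.011 to 0.17 for AMN and 1.08 to 1.87 for FOLR1. The LRP2 values of that term are set by the pseudocount of 0.5 CPM, since its Epi-like levels lie near it: from plain ratios they were -0.032 in run 1 and -0.25 in run 2, and those of FOLR1 2.41 and 1.27. Aggregate ratios stayed within their counting intervals in both alternatives. Of 100 shares of cells recomputed at 10000 UMIs or unthinned, 63 left the interval of the thinned value, 62 of them upwards.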
